A study of Homo sapiens with 6 samples.

Results

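The replication-dependent histone genes make the bulk of the histone protein that packages newly copied DNA. Their members here were the protein-coding genes whose symbol is H2AC, H2BC, H3C or H4C followed by a number, or H1-1 to H1-6. This rule took 70 genes of the 64253 gene identifiers in the count table, 66 by their current name and 4 (H2AC18, H2AC19, H3C2 and H3C3) through an older name. The rule used names only and no measured value, but the set was chosen with earlier results of these data known. The study sequenced 6 libraries from NCI-H1299, a human lung cancer cell line that the labels class as lung adenocarcinoma. There were 3 libraries of wild type H1299 cells and 3 of H1299 cells carrying an mCherry-tagged MTSS1 plasmid. MTSS1 is a membrane-binding and actin-binding adaptor protein, and the series as titled concerns its effect on NF-kB activity. The overexpressing cells had undergone hygromycin selection and a flow cytometry sort, and the protocol also names HEK293T cells for the stable transfection step. No control plasmid or hygromycin-selected control is among the 6 libraries, so MTSS1, the tag, the selection and the sort cannot be told apart. The labels state neither a promoter for the plasmid nor whether the cells were a pool or a clone. All RNA was poly(A)-selected with oligo(dT) beads, and the strand-marking libraries were read as single reads over 50 cycles.

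Library totals ran from 13883380 to 29479453 counts. MTSS1 itself was at 24.2, 18.0 and 24.3 CPM (counts scaled to library size and composition) in wild type replicates 1 to 3 and at 550.3, 544.2 and 568.1 CPM in the overexpressing replicates, a log2 fold change of 4.65 ± 0.13 (SE). Of 6 tested markers of a lung adenocarcinoma line, the epithelial keratin KRT8 was lower in overexpressing cells, at 135.6 to 211.9 CPM in wild type and 30.3 to 68.8 CPM (-1.74 ± 0.27 on the log2 scale; edgeR adjusted p = 0.011). The other 5 did not pass. Its partner KRT18 was at 432.6 to 637.7 CPM against 222.8 to 395.8 CPM (edgeR adjusted p = 0.061, and 4.4e-06 with neighbouring title numbers as a replicate block) and the lung lineage marker NKX2-1 at 0.628 to 1.59 CPM against 2.35 to 2.92 CPM (edgeR adjusted p = 0.12, and 0.022 with the block). The part of these differences in the histone result was not tested. The surfactant gene SFTPC had 1 count and KRT19 had 2 counts in all. The 2 libraries called replicate 1 stood apart: they were at -35.7 and -46.6 on the main principal component of all tested genes, which held 34.8% of the variance, against 11.8 to 31.3 for the other 4. The next component held 32.9%, and the groups did not overlap on it. Wild type libraries were at 22.7 to 32.2 and overexpressing ones at -40.2 to -16.9. Replicate numbers follow the order of the sample titles (2, 9 and 12 for wild type, 3, 10 and 13 for overexpressing). The labels do not say whether replicates were separate cultures, so the p-values reflect library-to-library spread, which may be technical.

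As background, the mRNAs of these genes are the exception among messenger RNAs of animal cells in that they normally end in a short stem-loop and not in a poly(A) tail. The stem-loop is bound by SLBP, and the pre-mRNA is cut just behind it by a complex that holds the U7 small nuclear RNA and the LSM10 and LSM11 proteins. Supply is tied to S phase, and the mRNAs are degraded when DNA synthesis stops. Some of these genes can also give transcripts that read past the stem-loop to a downstream polyadenylation signal, and such transcripts are described in differentiated cells and in some tumour cells. Oligo(dT) selection keeps RNA with a poly(A) tail, so the counts below are of histone RNA that came through that selection.

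The stem-loop sequences are shown because they mark the normal 3′ end that these libraries should pass over. The pattern GGNNCTTTTNAGNGCC was searched on the sense strand of all GENCODE 29 transcripts. It was in a transcript of 30 of the 70 members and of 15 of 58606 other genes (0.0256%). The sequences below are printed 5′ to 3′ as DNA, with the arms of the stem in capitals and the loop in lower case.
H2A, H2B and H3 form, 17 members, among them H2AC6, H2BC21 and H3C10: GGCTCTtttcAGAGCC
H2B and H3 form with another last loop base, 4 members (H2BC4, H2BC5, H2BC7 and H3C8): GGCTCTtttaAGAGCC
H2AC11 form, 1 member: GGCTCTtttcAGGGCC
H4 form, 5 members, among them H4C16: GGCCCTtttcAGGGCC
H4 form with another last loop base, 3 members (H4C9, H4C14 and H4C15): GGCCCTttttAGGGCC
Of the 40 members with no match, most have a GENCODE 29 model that stops too early to hold one: 34 of the 70 models end at the stop codon. A model was called long where a coding transcript had over 100 exonic bases past the stop codon, and short otherwise. By this rule 29 members had a long and 41 a short model. H2AC8 at 116 bases and H2AC18 and H2AC19 at 118 bases were just above the limit, and H2AC13 at 99 and H2BC13 at 82 bases were just below it. The stem-loop was found in 27 of the long models and 3 of the short ones. The polyadenylation signal AATAAA stood in the last 40 bases of 18 long models and 1 short model.

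Most members were counted at all in poly(A) RNA. At least 1 read was counted for 61 of the 70 in the 6 libraries, at least 10 for 53, and 1 to 9 for 8. The 9 at 0 were H2AC1, H2BC1, H3C3, H3C6, H3C11, H3C15, H4C6, H4C7 and H4C13, for which 0 counts in all libraries together allow a level of up to 0.0214 CPM (3 counts, counting error only). H2AC1 and H2BC1 are the testis-specific pair of the family. Of the 8 at 1 to 9 counts, H4C11, H4C14 and H2AC19 had 1 count each, H2AC17 had 2, H1-1 and H3C14 had 4, H2BC6 had 7 and H2BC12L had 8. All members together took 46662 of the 140112729 counts.

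By class, all 6 linker histone genes were counted, 16 of 17 H2A genes, 18 of 19 H2B genes, 9 of 13 H3 genes and 12 of 15 H4 genes. Linker histone H1 sits on the DNA between nucleosomes, and the other 4 classes form the nucleosome core. H2A genes took 34.5% of the members' counts, H2B genes 31.9%, H1 genes 15.5%, H3 genes 12.2% and H4 genes 5.82%. H2AC6 had the most counts of any member (9129), followed by H1-2 (5140), H2AC11 (3236) and H2BC12 (3233). Per kilobase of exon, the mean wild type level was 46.6 RPKM (CPM divided by the exon length in kilobases) for H2BC12, 45.7 for H1-2 and 29.9 for H2AC6, against 13.9 for H2BC5, 7.91 for H3C10 and 5.67 for H2BC21. These levels rest on the GENCODE 29 exon length of each gene, which leaves out any sequence past the stop codon for H2BC12 and H1-2.

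By position, members less than 250000 bases apart were taken as a cluster, and coordinates are those of GENCODE 29 on GRCh38. The main cluster on chromosome 6, at 26.02 to 26.29 Mb, held 32 members, of which 28 were counted, and 61.2% of the members' counts. The 5 members at 27.13 to 27.15 Mb of chromosome 6 were all counted and took 17.8%. A further 16 members lie at 27.81 to 27.89 Mb, of which 14 were counted with 12.1% of the counts. Neither member at 25.73 Mb, H2AC1 and H2BC1, was counted. On chromosome 1, 10 of 11 members at 149.78 to 149.89 Mb were counted with 7.17% of the counts, of which H2BC21 alone had 2717 of 3344. H2AC25 and H2BC26 at 228.46 Mb of chromosome 1 had 523 counts together, H4C16 on chromosome 12 had 304, and H2BC12L on chromosome 21 had 8. Of the 19 protein-coding genes that lie between the outermost chromosome 6 members and are no members, 5 were at 0 (26.3%), against 141 of 179 (78.8%) in a 5 Mb stretch of chromosome 6 that starts 0.61 Mb past the last chromosome 6 member, and 18.9% of the 19389 protein-coding genes outside both. Why so many genes of that stretch were at 0 was not tested, and a 0 in this table is not by itself a lack of RNA.

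**Figure D1:**
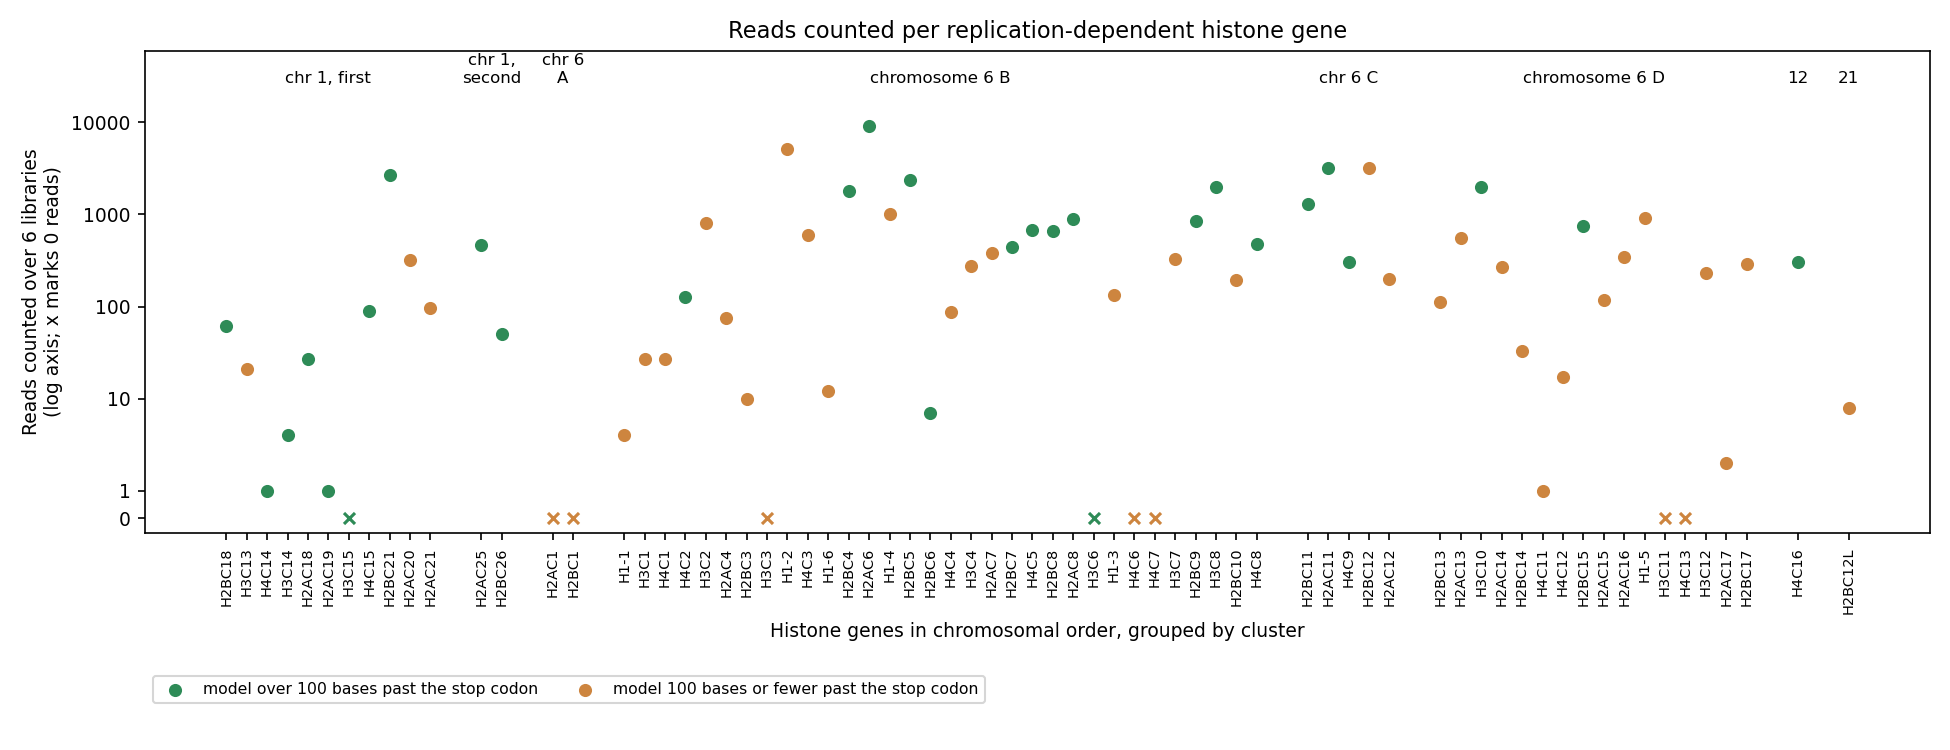
Reads counted over the 6 libraries (log axis) for each of the 70 histone genes in chromosomal order, grouped by cluster, with the colour giving the length of the gene model and x marking 0 reads. 9 genes are at 0 and H2AC6, in the main chromosome 6 cluster, is highest at 9129 reads.

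Near-identical sequence limits what a count of 0 or of a few reads says. Under 50% of the 50-base stretches of the transcripts were unique to the gene in 17 members, 7 of them in the chromosome 1 cluster at 149.78 to 149.89 Mb. H2AC18 (27 counts) and H3C15 (0 counts) had no unique stretch at all, and H2AC19 (1 count) had 2.91%, since this cluster holds duplicated copies. H3C4, H4C12, H2AC15, H3C14 and H2BC12L also had 0% unique stretches. A stretch held by an overlapping gene on either strand was not counted as unique, so overlap as well as copies can lower this share. The sources used here do not state how the counting treated reads that map to several places, so a count of 0 in such a gene was not detected by this counting and is not shown to be absent. Of the 9 members at 0, only H3C15 was under 50%. Some members also share exons: H2AC16 with H2BC15, and H3C12 with H2AC17, on the same strand, and H3C4 and H2AC7 with a read-through gene. H4C14 with H3C14, H3C15 with H4C15, and H2AC15 with H2BC15 overlap on opposite strands. The values of these genes are uncertain.

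Overexpressing and wild type libraries were then compared for the 43 members with enough reads to test. In the MTSS1 overexpressing libraries 8 members rose and 0 fell at an adjusted p below 0.05 (edgeR quasi-likelihood test, Benjamini-Hochberg over all 16091 genes tested), against 1.82% of all tested genes higher and 2.45% lower. These were 4 H2B genes (H2BC5, H2BC11, H2BC12 and H2BC21), 2 H2A genes (H2AC6 and H2AC11) and 2 H3 genes (H3C8 and H3C10). None of the 4 H1 and 8 H4 genes tested passed in this fit, which has no replicate block, while H1-2 and H4C9 (higher) and H1-3 (lower) passed with neighbouring titles as a block, and H1-2 and H4C9 without the low-count filter. At an unadjusted p below 0.05, 14 members were higher and 1 was lower, beside 1472 higher and 1717 lower of the 16091 genes tested. Among these members were 1 H1 gene higher, 1 H1 gene lower and 3 H4 genes higher. DESeq2 called 11 members higher and 0 lower (background 3.24% higher and 4.10% lower). The median log2 fold change was 0.42 over the 43 members, 33 of which were positive, and 0.00 over all tested genes. With neighbouring titles as a replicate block, 13 members were higher and 1 lower, against 10.7% of all tested genes higher and 22.7% called either way. Without the low-count filter 11 members were higher (background 2.37%), and with fold changes taken relative to the 50 nearest genes 7 were (background 0.777%). The count depended on the libraries used: it was 2 without wild type replicate 3, 4 without overexpressing replicate 3, and 0 without both replicate 1 libraries. All genes called higher numbered 59, 97 and 56 in these fits, against 293 with all libraries. Without both replicate 1 libraries, 11 members were higher at an unadjusted p below 0.05, beside 1024 of all genes in that fit. The levels of the 2 groups did not overlap, higher in the overexpressing cells, for 14 of the 43 members, against 12.1% of all tested genes.

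H2BC21 (ENSG00000184678, chromosome 1, 149884459 to 149886652, minus strand), an H2B gene whose long model runs 1801 bases past the stop codon, was at 9.86, 16.8 and 10.7 CPM in wild type and 28.2, 26.1 and 27.1 CPM in overexpressing replicates 1 to 3. Its log2 fold change was 1.12 ± 0.19 (SE), at an adjusted p of 0.015 in edgeR. Every overexpressing library was above every wild type library. H2BC11 (ENSG00000124635, chromosome 6, 27125897 to 27132750, minus strand) was at 7.32, 5.92 and 6.68 CPM in wild type and 13.9, 12.03 and 12.4 CPM in overexpressing cells, or 0.95 ± 0.15 higher on the log2 scale (edgeR adjusted p = 0.011). H2BC5 (ENSG00000158373, chromosome 6, 26158146 to 26171349, plus strand) was at 10.8, 13.3 and 12.1 CPM against 21.3, 22.9 and 21.9 CPM, and rose by 0.86 ± 0.12 on the log2 scale (edgeR adjusted p = 0.0081). For both genes the libraries within a group lay close together and far from the other group. H2BC12 (ENSG00000197903, chromosome 6, 27146418 to 27146798, minus strand) was at 16.7, 17.8 and 18.7 CPM against 33.2, 30.1 and 25.9 CPM, or 0.74 ± 0.12 higher on the log2 scale (edgeR adjusted p = 0.014). Its GENCODE 29 model is the coding part alone, with 25.9% unique stretches, shared in part with H2BC12L, so its count is the least certain of the 8. In the other 7 at least 91.9% of the stretches were unique.

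H2AC6 (ENSG00000180573, chromosome 6, 26124145 to 26139116, plus strand), the H2A gene with the most counts, was at 44.0, 56.7 and 48.9 CPM in wild type and 72.6, 91.2 and 76.97 CPM in overexpressing cells. Its log2 fold change of 0.69 ± 0.12 (edgeR adjusted p = 0.017) was the smallest of the 8. H2AC11 (ENSG00000196787, chromosome 6, 27133042 to 27135291, plus strand) was at 15.3, 19.2 and 17.7 CPM against 28.9, 28.1 and 30.9 CPM (log2 fold change 0.75 ± 0.12, edgeR adjusted p = 0.012). In neither gene did the groups overlap. H3C10 (ENSG00000278828, chromosome 6, 27810064 to 27811300, plus strand), an H3 gene, was at 9.33, 10.9 and 9.12 CPM in wild type and 21.003, 20.3 and 17.9 CPM in overexpressing cells, or 1.01 ± 0.13 higher on the log2 scale (edgeR adjusted p = 0.0053). H3C8 (ENSG00000273983, chromosome 6, 26269405 to 26271815, minus strand) was at 11.98, 7.28 and 12.4 CPM against 19.2, 18.3 and 19.3 CPM, with wild type replicate 2 the lowest (log2 fold change 0.85 ± 0.19, edgeR adjusted p = 0.042). H3C10 and H2BC5 passed in all 6 fits that left out 1 library, H2BC11 in 5, H2BC21, H2AC11 and H2BC12 in 4, H2AC6 in 3 and H3C8 in 1. Without both replicate 1 libraries the adjusted p of the 8 lay between 0.071 (H3C10) and 0.14, with log2 fold changes between 0.61 (H2BC12) and 0.96 (H2BC11). H3C8 also missed the threshold (edgeR adjusted p = 0.051) when fold changes were taken relative to the 50 nearest tested genes.

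**Figure D2:**
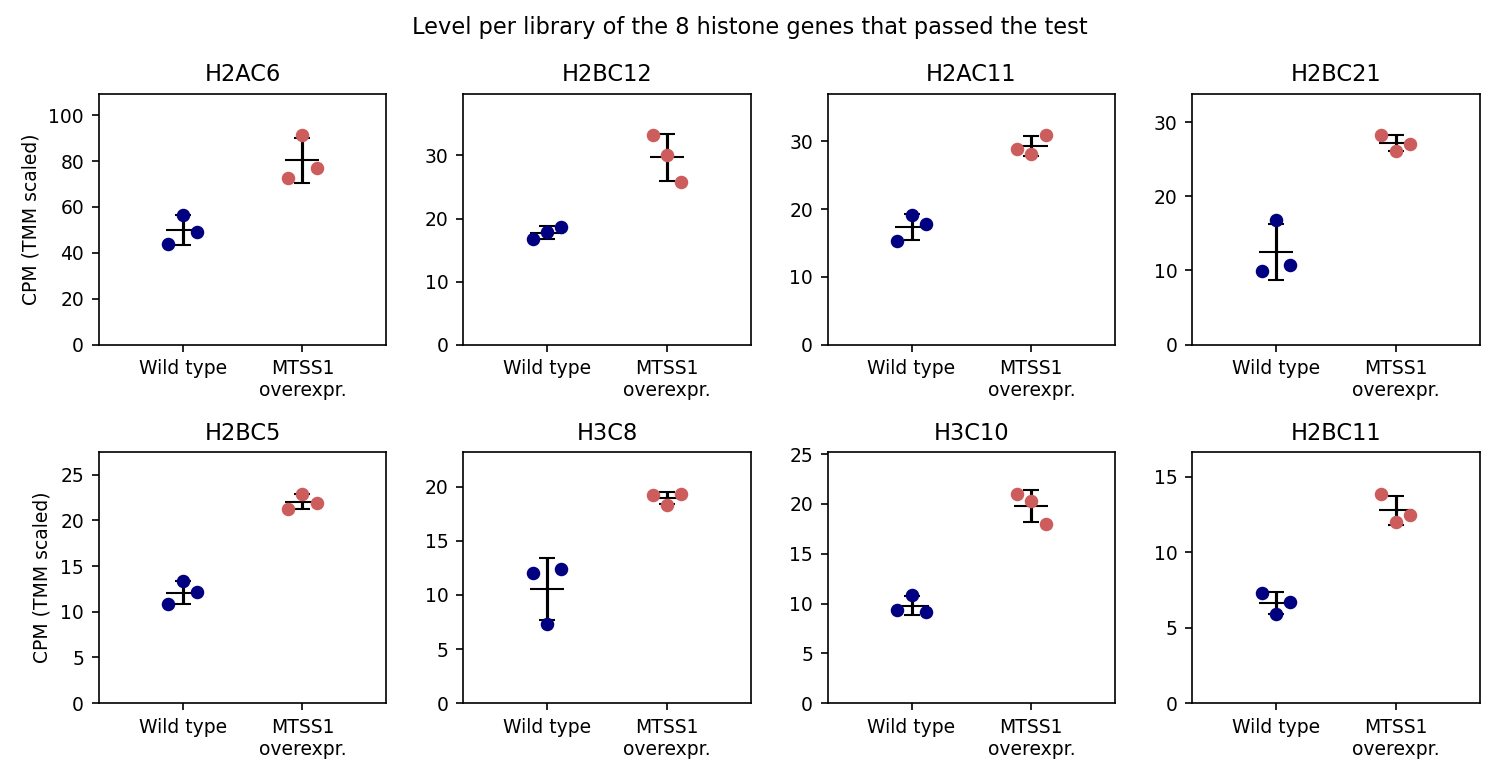
CPM per library of the 8 histone genes that passed the test, wild type on the left and MTSS1 overexpressing on the right of each panel, with points for the 3 libraries and a bar for their mean ± SD. In each panel the 3 overexpressing points lie above the 3 wild type points, as for H3C10 at 17.9 to 21.003 against 9.12 to 10.9 CPM.

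In 5 further long-model genes every overexpressing library was above every wild type library, but the test was not passed. H4C9 was at 1.48, 0.959 and 1.54 CPM in wild type and 2.57, 2.84 and 3.96 CPM in overexpressing cells (log2 fold change 1.25 ± 0.32, edgeR adjusted p = 0.061, and 0.0077 with the replicate block). H2BC4 was at 8.59, 12.7 and 8.82 CPM against 14.0, 16.6 and 16.4 CPM (0.64 ± 0.18, edgeR adjusted p = 0.078, and 0.0040 with the block). H2AC25, the H2A gene of the distal chromosome 1 pair, was at 2.70, 2.84 and 1.91 CPM against 4.26, 5.80 and 3.00 CPM (edgeR adjusted p = 0.17, and 0.019 with the block). All 3 passed once libraries with neighbouring titles were blocked. H4C9 and H2BC4 also passed with DESeq2 (adjusted p = 0.026 and 0.023) and without the low-count filter (edgeR adjusted p = 0.017 and 0.0069). H4C15 was at 0.530, 0.331 and 0.413 CPM against 0.881, 0.846 and 1.00 CPM, from 90 counts in all and with 2.82% unique stretches. H4C16, the lone H4 gene of chromosome 12, was at 1.38, 1.65 and 2.06 CPM against 3.30, 2.27 and 2.76 CPM. Neither passed with or without the block (edgeR adjusted p = 0.18 and 0.23 without it). H2BC7 was at 1.48, 1.89 and 3.60 CPM against 3.16, 4.34 and 4.12 CPM and overlapped between the groups (edgeR adjusted p = 0.28, and 0.047 with the block).

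The remaining 7 tested long-model genes overlapped between the groups, with log2 fold changes from -0.10 to 0.53 and adjusted p (edgeR) from 0.41 to 0.91. The H4 gene H4C2 was at 0.636, 0.662 and 0.901 CPM in wild type and 0.808, 1.23 and 1.12 CPM in overexpressing cells. H4C8 was at 2.92, 1.72 and 4.02 CPM against 3.82, 3.46 and 4.68 CPM. H4C5, the only long-model gene with a negative fold change, was at 3.02, 4.66 and 6.87 CPM against 3.75, 3.997 and 5.88 CPM. In each of these H4 genes at least 1 wild type library was above an overexpressing library. Among the H2B genes, H2BC8 was at 3.18, 3.57 and 5.18 CPM against 4.99, 4.42 and 6.64 CPM. H2BC9 was at 3.71, 5.49 and 7.17 CPM against 6.24, 6.38 and 6.84 CPM. H2BC15 was at 4.88, 5.56 and 4.54 CPM against 5.29, 5.92 and 5.92 CPM. The wild type libraries of H2BC9 spanned the whole overexpressing range, and in H2BC15 wild type replicate 2 reached into it. The H2A gene H2AC8 was at 3.29, 6.38 and 7.70 CPM against 5.21, 7.53 and 6.24 CPM, lowest in replicate 1 of both groups.

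Among the linker histone genes, which all have short models, H1-2 carried most of the reads. It was at 23.6, 33.8 and 30.6 CPM in wild type and 35.2, 50.0 and 43.1 CPM in overexpressing cells, with no overlap but a log2 fold change of 0.54 ± 0.16 that did not pass (edgeR adjusted p = 0.098). It passed with the replicate block (edgeR adjusted p = 0.00037) and with DESeq2 (adjusted p = 0.018). H1-3 went the other way, at 1.01, 1.42 and 1.46 CPM against 0.367, 0.231 and 0.841 CPM. Its log2 fold change of -1.41 ± 0.51 rested on 133 counts (edgeR adjusted p = 0.16, and 0.037 with the block). It was the 1 member whose groups did not overlap in the lower direction, against 13.5% of all tested genes. H1-4 was at 3.66, 7.77 and 8.41 CPM against 3.45, 7.80 and 9.81 CPM. H1-5 was at 2.76, 5.46 and 11.4 CPM against 2.50, 5.04 and 9.09 CPM, with the highest wild type library 4.14 times the lowest. In H1-4 and H1-5 replicate 1 was lowest and replicate 3 highest in both groups, and the groups overlapped. H1-6, the testis-specific linker gene, had 12 counts in all and H1-1 had 4.

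The short-model H2A genes overlapped between the groups, with log2 fold changes from -0.49 to 0.57 and adjusted p (edgeR) from 0.47 to 0.99. H2AC7 was at 1.43, 2.25 and 2.67 CPM in wild type and 1.62, 4.23 and 3.48 CPM in overexpressing cells. H2AC13 was at 2.12, 4.50 and 3.00 CPM against 2.94, 5.50 and 4.44 CPM. H2AC14 was at 0.742, 1.42 and 2.82 CPM against 1.32, 2.88 and 1.88 CPM. These 3 genes had under 50% unique stretches and were lowest in replicate 1 of both groups. H2AC16 was at 1.22, 3.11 and 3.42 CPM against 1.102, 2.81 and 2.12 CPM. H2AC20 was at 0.689, 1.69 and 4.09 CPM against 0.661, 1.96 and 3.64 CPM. H2AC12 was at 0.477, 1.49 and 1.80 CPM against 1.03, 1.35 and 2.00 CPM. In H2AC12, H2AC16 and H2AC20 as well replicate 1 was the lowest library of each group. H2AC4 was at 0.0530, 0.198 and 1.01 CPM against 0.367, 0.730 and 0.680 CPM. H2AC15 was at 0.477, 0.893 and 0.751 CPM against 1.03, 0.807 and 1.08 CPM. H2AC21 was at 0.424, 0.695 and 1.16 CPM against 0.294, 0.884 and 0.400 CPM. These last genes had 75 to 118 counts in all, so a change in them was not detectable at this depth unless large.

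Short-model H2B, H3 and H4 genes other than H2BC12 also overlapped between the groups (edgeR adjusted p 0.69 to 0.96). H2BC10 was at 0.848, 1.12 and 1.84 CPM in wild type and 0.661, 1.38 and 2.04 CPM in overexpressing cells. H2BC13 was at 0.583, 0.662 and 1.05 CPM against 0.808, 0.769 and 0.881 CPM. H2BC17 was at 1.27, 1.29 and 3.23 CPM against 1.76, 1.96 and 2.64 CPM. None of these H2B genes reached a log2 fold change above 0.14, where H2BC12 was at 0.74. Of the H3 genes, H3C2 was at 2.86, 5.13 and 7.88 CPM against 4.26, 4.54 and 8.49 CPM. H3C7 was at 1.06, 2.65 and 3.72 CPM against 1.32, 1.77 and 2.48 CPM. H3C4 was at 1.43, 2.05 and 2.25 CPM against 1.25, 2.42 and 1.84 CPM. All of them were lowest in replicate 1 of each group, as was H3C12 at 0.902, 0.959 and 2.74 CPM against 1.03, 1.42 and 2.48 CPM. The H4 gene H4C3 was at 3.34, 3.64 and 6.31 CPM against 2.13, 4.07 and 4.92 CPM. H4C4 was at 0.318, 0.860 and 0.676 CPM against 0.220, 0.269 and 1.08 CPM. Both H4 genes had negative log2 fold changes (-0.24 and -0.21) well within their standard errors of 0.35 and 0.66.

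Of the 27 members not tested, 3 had at least 30 counts. H2BC18 was at 0.265, 0.165 and 0.338 CPM in wild type and 0.441, 0.307 and 1.16 CPM in overexpressing cells. H2BC26 was at 0.212, 0.165 and 0.263 CPM against 0.220, 0.846 and 0.400 CPM. H2BC14 was at 0.212, 0.132 and 0.263 CPM against 0.220, 0.307 and 0.280 CPM. All 3 are H2B genes, and their groups overlapped. H3C1 had 27 counts, of which 22 came from wild type replicate 2 alone.

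**Figure D3:**
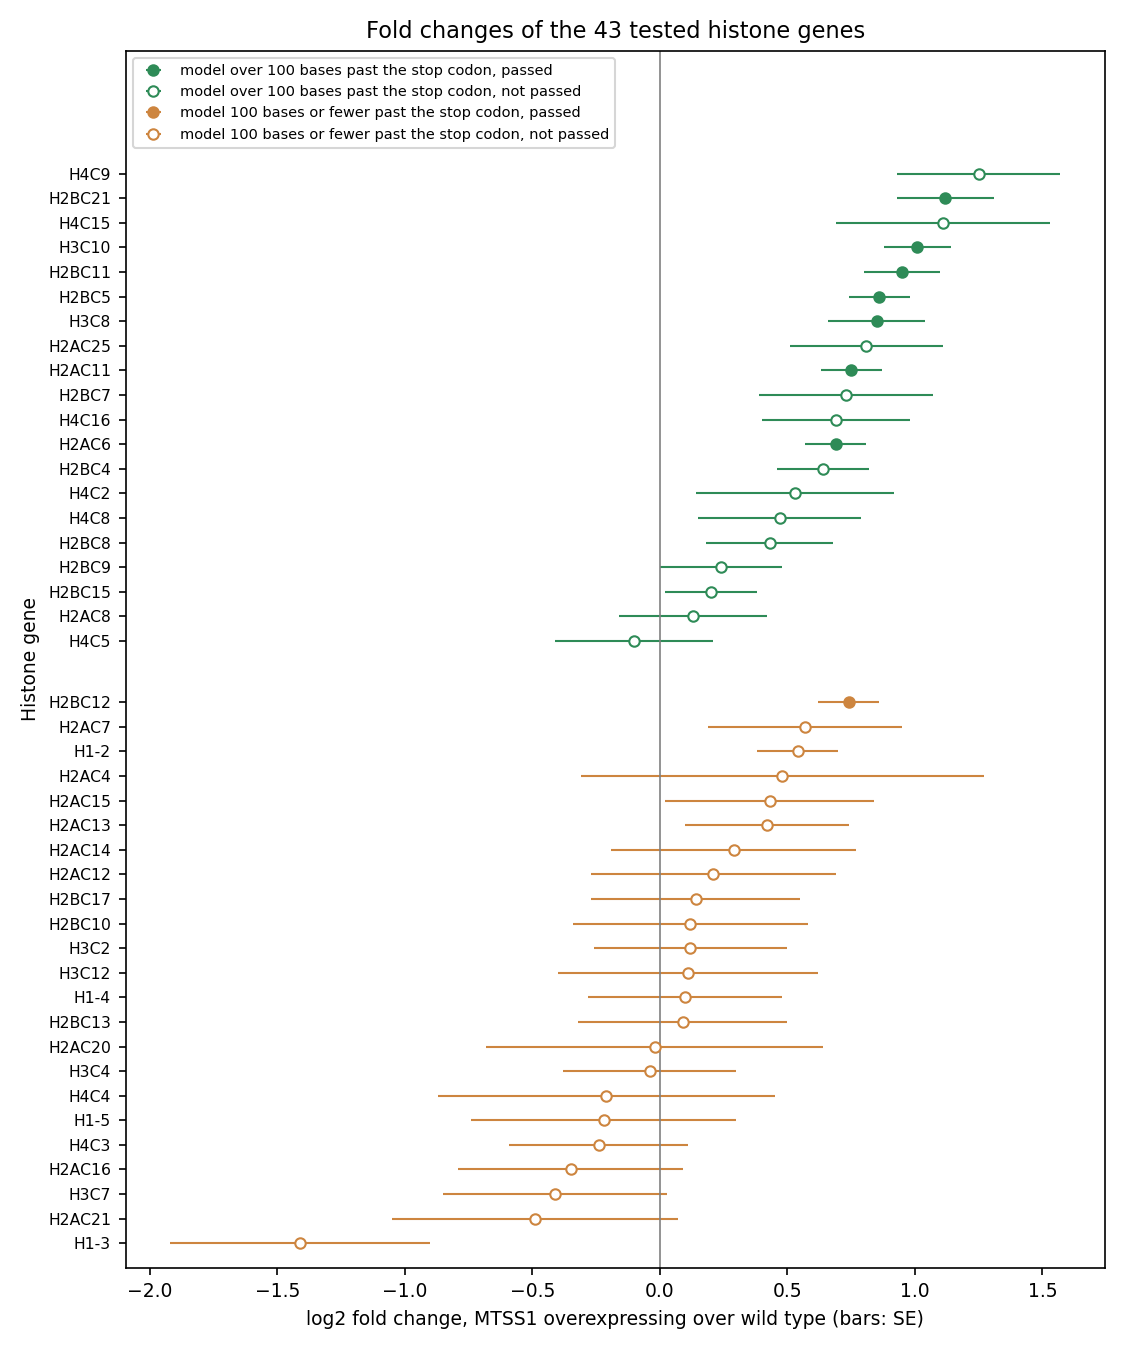
Log2 fold change (MTSS1 overexpressing over wild type) with its SE for the 43 tested histone genes, split by length of the gene model, with filled points for genes that passed. The long models lie between -0.10 and 1.25 with 7 of 20 passed, and the short models between -1.41 and 0.74 with H2BC12 the only 1 of 23 passed.

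Split by model, 7 of 20 tested genes with a long model passed and 1 of 23 with a short model, all higher, beside 1.82% of all tested genes. The median log2 fold change was 0.71 over the long models, 19 of 20 positive, and 0.11 over the short models, 14 of 23 positive, beside 0.00 over all tested genes. The difference between the 2 kinds was not tested. Read depth differed as well: each of the 8 that passed had at least 1308 counts. Of the short-model genes only H1-2 (5140) and H2BC12 (3233) had as many, and H1-4 followed with 1023. A count on a model that ends at the stop codon also leaves out any read past it. The part of depth and of model length in this split was not tested. H2BC12, the short-model gene that passed, ends at the stop codon in GENCODE 29, while its RefSeq gene spans 8566 bases. The 2 sources differ for other genes too. Of the long-model genes that passed, H2BC11, H3C10, H2AC11, H3C8 and H2AC6 span only 480 to 519 bases in RefSeq. H2BC21 spans 2224 and H2BC5 13229 bases there. The short-model H3C4 spans 2510 bases in RefSeq and had a log2 fold change of -0.04. Long-model genes took 65.9% of the members' counts. Their summed level was 147.5, 179.0 and 173.1 CPM in wild type and 264.9, 285.8 and 276.8 CPM in overexpressing cells, a ratio of means of 1.66, with no overlap. The short-model sum was 69.5, 102.4 and 121.9 CPM against 100.2, 133.6 and 136.2 CPM, a ratio of 1.26, and overlapped. Its group mean went from 98.0 to 123.3 CPM, and the rises of H1-2 and H2BC12 together were about as large as that rise. H1-2 went from a mean of 29.3 to 42.8 CPM, and H2BC12 from 17.7 to 29.7 CPM. Without H2BC12, but with H1-2 still in the sum, the short-model ratio was 1.17. Over all 70 members the sum was 217.1, 281.5 and 295.0 CPM against 365.1, 419.4 and 413.0 CPM, a ratio of 1.51. Whether more cells held this RNA or each cell held more cannot be told apart in bulk libraries.

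Short-model genes also shared a pattern among libraries that the groups do not explain. Replicate 1 was the lowest of its group in both groups for 19 of the 23 tested short-model genes, against 8 of 20 with a long model and 18.7% of all tested genes. In wild type cells the short-model sum was 69.5 CPM in replicate 1 and 121.9 CPM in replicate 3. RNAs that carry no poly(A) tail, such as the small nuclear RNAs of the spliceosome, were summed as well. Of 19 such genes, 11 were at 0, only 2 had enough reads to test, and the list had 378 counts in all. Their summed level was 0.848, 2.71 and 1.39 CPM in wild type and 0.441, 1.38 and 8.04 CPM in overexpressing cells. It was lowest in replicate 1 of both groups and highest in overexpressing replicate 3. A link of these few counts to the short-model pattern was not tested. Mitochondrial mRNAs, whose levels can follow RNA quality, summed to 34669, 25999 and 37733 CPM in wild type and 38035, 39372 and 44339 CPM in overexpressing cells, with no overlap, and their part in the histone result was not tested. All 13 had a positive log2 fold change and 0 passed with edgeR (6 higher at an unadjusted p below 0.05, 4 with DESeq2, 12 with the block). Of all 16091 genes tested, 1472 were higher at that unadjusted p. The shares called higher were 3.24% with DESeq2 and 10.7% with the block.

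**Figure D4:**
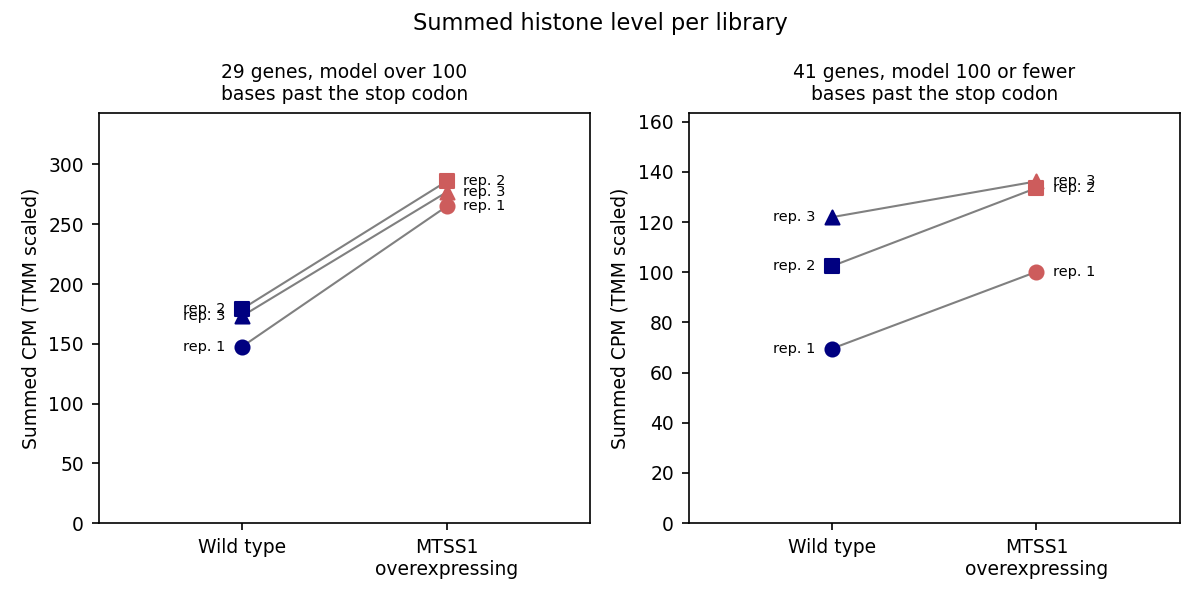
Summed CPM per library of the 29 long-model (left) and 41 short-model (right) histone genes, with lines joining libraries of neighbouring title numbers. The long-model sums do not overlap (147.5 to 179.0 against 264.9 to 285.8 CPM), while the short-model sums do, and replicate 1 is lowest in each group.

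Many H2A and H2B genes lie head to head, so that the space between their start sites serves both genes. In RefSeq, 12 such H2A and H2B pairs among the members had starts 194 to 248 bases apart, and both genes were tested in 8 of them. In the pair of H2AC11 and H2BC11 both genes rose (log2 fold changes 0.75 and 0.95). H2AC6 rose by 0.69. Its partner H2BC4 was at 0.64 and did not pass in the filtered edgeR fit without the block, but passed with DESeq2 and with the block. In 2 pairs the H2B gene passed and the H2A gene did not: H2BC21 was at 1.12 beside -0.02 for H2AC20, and H2BC12 at 0.74 beside 0.21 for H2AC12. The ratio of H2BC21 to H2AC20 counts was 14.3, 9.94 and 2.61 in wild type and 42.7, 13.3 and 7.44 in overexpressing cells, higher in 3 of 3 neighbouring library pairs but overlapping between the groups. With the replicate block the log2 fold changes of these genes were 1.13 ± 0.15 and 0.00 ± 0.27. The ratio of H2BC11 to H2AC11 was also higher in 3 of 3 neighbouring pairs, at 0.478, 0.309 and 0.377 in wild type and 0.481, 0.428 and 0.403 in overexpressing cells. The log2 ratio of H2BC21 to H2AC20 differed by 1.17 between the groups, with SDs of 1.29 and 1.28 (n = 3 each; exact permutation test, two-sided, p = 0.50). Over the 8 pairs the exact permutation p lay between 0.40 and 0.80, all 0.80 after Benjamini-Hochberg adjustment, and 3 libraries against 3 cannot go below 0.10. This test could not pass 0.05 whatever the values, and it leaves out the pairing of neighbouring libraries, so it does not settle whether the genes of a pair responded alike.

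**Figure D5:**
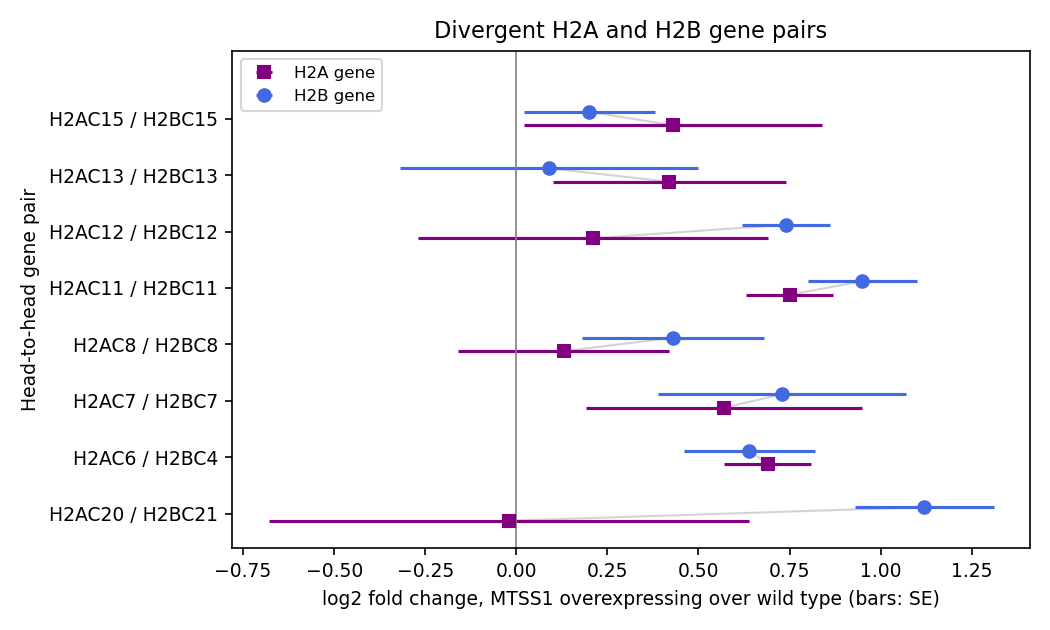
Log2 fold change with its SE of the H2A gene (square) and H2B gene (circle) in each of the 8 head-to-head pairs with both genes tested. H2AC20 and H2BC21 lie farthest apart (-0.02 and 1.12), and H2AC6 and H2BC4 closest (0.69 and 0.64).

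The upstream sequences of 3 genes that rose are shown because each also faces a partner gene. They are RefSeq GRCh38.p14 sequences of the 250 bases before the start site, 5′ to 3′ on the strand of the gene. Capitals mark the octamer ATTTGCAT, the CCAAT box and TATAA on either strand (ATGCAAAT, ATTGG and TTATA as complements), which can overlap.
H2BC21, chr1:149886683-149886932, minus strand, facing H2AC20: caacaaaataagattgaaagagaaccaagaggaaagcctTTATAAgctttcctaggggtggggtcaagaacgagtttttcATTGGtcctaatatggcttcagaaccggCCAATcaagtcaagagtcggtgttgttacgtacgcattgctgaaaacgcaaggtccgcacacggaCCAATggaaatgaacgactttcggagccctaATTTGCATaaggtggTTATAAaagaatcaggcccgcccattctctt
H2AC6, chr6:26123922-26124171, plus strand, facing H2BC4: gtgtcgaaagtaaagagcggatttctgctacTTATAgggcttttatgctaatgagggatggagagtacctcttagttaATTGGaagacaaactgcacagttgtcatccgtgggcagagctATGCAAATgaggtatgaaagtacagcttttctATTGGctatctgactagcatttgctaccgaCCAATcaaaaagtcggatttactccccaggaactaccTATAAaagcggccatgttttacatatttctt
H2BC12, chr6:27146856-27147105, minus strand, facing H2AC12: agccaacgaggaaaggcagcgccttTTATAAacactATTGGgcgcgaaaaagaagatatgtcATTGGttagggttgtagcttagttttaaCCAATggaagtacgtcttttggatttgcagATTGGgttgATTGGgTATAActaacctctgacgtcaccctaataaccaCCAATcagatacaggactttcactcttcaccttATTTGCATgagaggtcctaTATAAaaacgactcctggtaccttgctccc
Each holds 1 octamer, which is bound by POU2F1 (Oct-1) in H2B promoters, together with CCAAT boxes, the site of the NF-Y complex, and TATAA. RefSeq windows from 250 bases before to 50 after the start were matched for 64 of the 70 members and 27305 genes in all. The octamer was in 14 of 18 H2B and 11 of 16 H2A windows, 1 of 11 H3 windows and no window of the 6 H1 and 13 H4 genes, against 2.19% of all genes. It was in 5 of the windows of the 8 genes that rose. CCAAT was in 54 of the 64 windows (84.4%) against 39.7% of all genes, with H4 genes lowest at 3 of 13. TATAA was in 59 of 64 (92.2%) against 24.2% of all genes. Such matches describe the letters in these windows and are not measured binding.

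In the 5 lists on histone supply, with 12, 18, 12, 22 and 32 tested genes, 4 genes passed the test without the replicate block. All 4 were higher, beside 1.82% of all tested genes higher and 2.45% lower. The block changed the number of calls: 38 genes of the lists were then higher and 8 lower, against 22.7% of all tested genes called either way. DESeq2 called 9 higher and 2 lower (background 3.24% higher and 4.10% lower). Of the 12 replacement histone variants, which have polyadenylated mRNAs and are made outside S phase as well, MACROH2A2 rose (log2 fold change 0.69, edgeR adjusted p = 0.040) and 11 did not pass, with a median of 0.20. The next 3 by p were H3-3B (0.29, edgeR adjusted p = 0.097), H2AJ (0.34, 0.19) and H2AZ2 (0.22, 0.21), and with the block 6 variants were higher and MACROH2A1 lower. Among 18 genes of histone mRNA 3′ end processing and decay 0 passed with DESeq2 or with edgeR without the block. Beside 1472 higher and 1717 lower of the 16091 genes tested at an unadjusted p below 0.05, this list had 1 higher and 3 lower. These last were CSTF2 (0.21), and TUT7 (-0.33), which adds uridines to histone mRNA in decay, ZNF473 (-0.35), a U7 particle partner, and CASP8AP2 (-0.27), with adjusted p (edgeR) of 0.089 to 0.22. With the block 3 genes of this list were higher and 4 lower: CSTF2 passed (edgeR adjusted p = 0.038), as did TUT7 (0.0037), CASP8AP2 (0.0056), ZNF473 (0.036) and UPF1 (0.014), the last also lower. The U7 RNA gene RNU7-1 was at 0 counts. Of 12 genes of histone gene transcription, CCNE1, the cyclin that drives NPAT phosphorylation with CDK2, rose (log2 fold change 0.83, edgeR adjusted p = 0.027), while NFYA (-0.27), CDK2 (0.22) and POU2F1 (-0.17) did not pass. With the block 2 genes of this list were higher and NFYA was lower.

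Of 22 tested histone chaperones, SUPT16H, a subunit of the FACT complex, rose (0.48, edgeR adjusted p = 0.030). The H3-H4 chaperone ASF1A (-0.35), ATRX (-0.36) and CABIN1 (0.36) followed by p and did not pass without the block, with which 6 chaperones were higher and 2, ASF1A and ATRX, lower. Of 32 DNA replication genes, MCM7, a subunit of the replicative helicase, rose (0.42, edgeR adjusted p = 0.024), while RFC2 (0.35), MCM2 (0.37) and TK1 (0.43) did not pass. Replication genes were positive in 26 of 32, with a median of 0.20, and summed to 4393 to 5451 CPM in wild type and 5522 to 6266 CPM in overexpressing cells. With the replicate block 21 of them passed, all higher, against 10.7% of all tested genes. Without it, 10 were higher at an unadjusted p below 0.05, beside 1472 of the 16091 genes tested. The part of the replication genes in the histone result was not tested. The 4 calls in these lists depended on single libraries: 0 remained called without overexpressing replicate 1, wild type replicate 3 or overexpressing replicate 3. Of 5 tested blood cell markers 1 was higher, ITGAM, and 1 other was lower at an unadjusted p below 0.05 only. The summed level of all 9 listed blood cell markers was 5.73 to 6.58 CPM against 9.53 to 12.2 CPM. The 5 tested endothelial and fibroblast markers gave 0 calls with edgeR or DESeq2 and none at an unadjusted p below 0.05.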

How the data were processed

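Per the submitters' processing notes, reads were handled with bcl2fastq, HISAT2 2.1.0 and HTSeq on GRCh38. The deposited table holds raw read counts per Ensembl gene. For the annotation release, the strand setting and reads with several matches, the settings are not given in the sources used. Symbols came from a current gene name table, and positions, gene models and transcript sequences from GENCODE 29. Promoters came from RefSeq GRCh38.p14.

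Genes kept by filterByExpr (16091) were tested with edgeR 4.0.16 (R 4.3.3), using TMM scaling, a quasi-likelihood fit of the 2 groups over all 6 libraries and Benjamini-Hochberg adjustment at 0.05. CPM values use TMM-scaled totals. Alternatives were DESeq2 1.42.0, its size factors in edgeR, unscaled totals, no filter, each library left out, an offset by the 50 nearest genes, a replicate block, and, chosen after seeing the data, both replicate 1 libraries left out. The block rests on the data: deviations from the group means correlated at 0.66, 0.34 and 0.38 between libraries with neighbouring title numbers and at -0.40 to 0.10 between others. Replicates of a group differed by more than counting noise in every pair (chi-square divided by its degrees of freedom, 14.7 to 28.0).

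Values are given for every tested member and every member with at least 30 counts, and for up to 4 genes of each list by p. The members and lists were chosen with earlier results of these data known. Groups were taken from the label on reporter gene expression.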

Additional observations from a re-analysis of the deposited data

How the results depend on the processing

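The direction of MTSS1 and of the 8 histone genes that rose was the same under every alternative run. The summed histone ratio of 1.51 ranged from 1.38 to 1.60 with 1 library left out, and MTSS1 was called throughout. The number of histone genes called (8) was 14 with the replicate block of neighbouring title numbers, 11 with DESeq2 or without a filter, 7 with the offset by the 50 nearest genes, and 2 to 9 with 1 library left out, lowest without wild type replicate 3. Without both replicate 1 libraries it was 0 with edgeR, with 11 higher and 0 lower at an unadjusted p below 0.05. Over all genes of that fit, 1024 were higher and 1228 lower at that level. The cause was not tested, and the fit has fewer samples. All genes called (688) numbered 1188 with DESeq2, 1489 without a filter, 3651 with the replicate block, 337 with the offset, 145 to 346 with 1 library left out and 132 without both replicate 1 libraries. Calls in the related lists (4) numbered 11 with DESeq2, 15 without a filter, 46 with the replicate block and 1 with the offset. They numbered 0 to 3 with 1 library left out and 0 without both replicate 1 libraries. In that last fit 15 list genes were higher and 5 lower at an unadjusted p below 0.05, beside 1024 and 1228 of all genes. For these counts the cause was not tested. The block changed the call of no member but H1-2, H1-3, H2AC25, H2BC4, H2BC7 and H4C9.

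The sign changed with 1 library left out in 15 tested members, none of them called, and in no other of the 43. Their log2 fold changes ranged from -0.67 to 0.81 in H2AC20, -0.27 to 0.52 in H3C2, -0.49 to 0.10 in H4C3, -0.21 to 0.41 in H1-4, -1.32 to 0.14 in H4C4, -0.29 to 0.16 in H3C4, -0.33 to 0.24 in H4C5, -0.14 to 0.38 in H2AC8, -0.28 to 0.48 in H2BC10, -0.15 to 0.55 in H2AC12, -0.06 to 0.39 in H2BC13, -0.04 to 0.90 in H2AC14, -0.77 to 0.44 in H1-5, -0.31 to 0.83 in H3C12 and -0.09 to 0.73 in H2BC17. Without both replicate 1 libraries H2AC8 was at -0.03 and H2BC13 at -0.05. The 27 members left untested had too few reads for a comparison.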
